A study of Mus musculus with 6 samples.

Results

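Of the genes counted in whole hearts of E13.5 mouse embryos, 8 that act in the repair of the muscle cell membrane were examined. They were Trim72, Dysf, Cav3, Myof, Anxa1, Anxa2, Anxa5 and Anxa6. They were taken by gene name from the 46983 genes of the deposited table. The group was selected on measured values, the counts of Trim72 in the contrast of mutant against control hearts, in which it had stood out, so every difference between mutant and control hearts that follows for these 8 genes is a description with no test. Mutant hearts (3, replicates 1, 5 and 10) carried the TnnT2Cre transgene and floxed Wt1 and had a C57BL/6 x DBA/2 background. Control hearts (3, replicates 2, 3 and 5) had the same background and are labelled wild type, while the study's methods give them as embryos with both Wt1 alleles floxed and without Cre, so that the floxed alleles were shared by both groups. Tnnt2 is the cardiac troponin T gene, and the study describes recombination by this Cre in nearly all of the myocardium and in part of the epicardium. Wt1 encodes a transcription factor that is strongly expressed in the epicardium and, per the study, at lower levels in some embryonic cardiomyocytes, so the deletion does not cover every Wt1-expressing cell of the heart. Each library came from 1 heart, and the labels do not give the sex of the embryos.

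A tear in the plasma membrane of a muscle cell lets calcium in and oxidizing conditions follow, and the cell closes it within seconds by moving vesicles and phospholipid-binding proteins to the site. Trim72 (also called MG53) is a muscle protein of the tripartite motif family, an E3 ubiquitin ligase that gathers vesicles at the injury. Dysferlin (Dysf) and myoferlin (Myof) are large membrane proteins with several calcium-binding C2 domains, and caveolin 3 (Cav3) is the muscle form of the protein that shapes caveolae. The annexins bind acidic phospholipids when calcium rises and form a patch over the wound. Loss of DYSF or CAV3 function causes human muscle disease.

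Total counts lay between 44244665 (control replicate 5) and 56373393 (control replicate 3). All 11 cardiomyocyte markers were detected, with a summed level of 16056 to 19669 CPM (counts scaled to a common, normalized library size) in control hearts and 17984 to 19901 CPM in mutant hearts, as befits heart tissue. A level in a whole heart does not tell fewer cells of a type from less RNA per cell. Wt1 was between 19.97 and 40.0 CPM in control hearts and between 17.7 and 35.7 CPM in mutant hearts, and a count over the whole gene does not separate recombined from intact alleles. A pair of control hearts stood apart. In control replicate 5, long genes were low and short genes high relative to the other hearts (Spearman's rho of the deviation with gene length −0.556 across 11795 genes, against −0.06 to 0.46 in the other 5 hearts). Control replicate 3 held RNA of other tissues, with 739 CPM summed over 4 hepatocyte markers (0.80 to 19.6 CPM in the other hearts) and 76.5 CPM summed over 11 skeletal muscle markers (10.5 to 19.9 CPM in the others). Xist was at 299 to 391 CPM in control replicate 2 and mutant replicates 5 and 10 and under 1 CPM in the others, so the groups were not balanced for it.

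The start sites of Trim72 and of the pair of other genes with the next largest differences, Anxa1 and Cav3, are shown as RefSeq gives them on GRCm38.p6, because these 3 genes had the largest differences within the group. Each window has 300 bases in the direction of transcription, and takes in the RefSeq start site. In GENCODE M21 the genes Trim72 (from 128003949) and Anxa1 (from 20390944 on the minus strand) begin upstream of these windows. Cav3 begins inside its window, at 112459505. Capitals mark matches to 5 motifs searched on both strands, the E-box (CANNTG, bound by basic helix-loop-helix factors), a MEF2 site (CTA and TAG with any 4 bases between them), the M-CAT element of TEAD factors (CATTCC), the TATA box (TATAAA) and a core of the WT1 and EGR site (GCGTGGG), and no match overlapped another. The windows lie at chr7:128004128-128004427 on the plus strand (Trim72), chr19:20390622-20390921 on the minus strand (Anxa1) and chr6:112459255-112459554 on the plus strand (Cav3).
Trim72: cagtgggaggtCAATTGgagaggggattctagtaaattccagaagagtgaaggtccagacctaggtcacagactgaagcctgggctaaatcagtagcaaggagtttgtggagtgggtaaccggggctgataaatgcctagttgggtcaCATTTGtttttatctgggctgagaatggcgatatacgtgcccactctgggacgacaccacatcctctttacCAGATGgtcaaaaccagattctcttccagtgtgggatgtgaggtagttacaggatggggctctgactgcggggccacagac
Anxa1: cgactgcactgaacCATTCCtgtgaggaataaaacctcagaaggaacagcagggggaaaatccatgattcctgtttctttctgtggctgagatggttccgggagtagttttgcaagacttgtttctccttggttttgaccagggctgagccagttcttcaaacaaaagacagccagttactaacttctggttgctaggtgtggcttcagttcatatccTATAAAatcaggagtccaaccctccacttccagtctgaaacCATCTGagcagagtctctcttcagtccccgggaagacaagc
Cav3: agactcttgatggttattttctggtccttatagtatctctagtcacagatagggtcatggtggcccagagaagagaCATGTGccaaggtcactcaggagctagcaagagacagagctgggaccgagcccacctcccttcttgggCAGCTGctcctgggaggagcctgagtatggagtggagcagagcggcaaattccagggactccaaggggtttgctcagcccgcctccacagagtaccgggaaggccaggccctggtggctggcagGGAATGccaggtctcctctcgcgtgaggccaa
The Trim72 window held 3 E-boxes, at bases 12, 149 and 220, and no match to the other 4 motifs. The Cav3 window held 2 E-boxes and 1 M-CAT element (on the minus strand at base 269), and the Anxa1 window held 1 E-box, 1 M-CAT element and 1 TATA box. E-boxes occur in 72.3% of all 32851 windows of this length, the M-CAT element in 14.7%, the TATA box in 13.6%, the WT1 and EGR core in 5.04% and the MEF2 letters in 3.69%. Of the 8 genes, 7 had a window in the table, and of their 8 windows 5 held an E-box. The WT1 and EGR core was found in the window of Anxa5 and in the downstream window of Dysf. A match is a description of letters and does not show that a factor binds there.

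Trim72 stood apart from the other 7 genes. It lies on chromosome 7 from 128003949 to 128011033 (ENSMUSG00000042828, plus strand, GENCODE M21 on GRCm38). It had 472, 436 and 299 counts in control replicates 2, 3 and 5. In mutant replicates 1, 5 and 10 it had 787, 921 and 832 counts. On the scale of the deposited FPKM (the count scaled by gene length and by the total count), its level was 4.37, 3.98 and 3.47 in the control hearts and 7.93, 9.07 and 8.05 in the mutant hearts. The lowest mutant heart was well above the highest control heart, and the mean was 3.94 ± 0.45 FPKM in control and 8.35 ± 0.63 FPKM in mutant hearts (SD, n = 3 per group). The log2 fold change of mutant over control was 1.11 with a standard error of 0.13, which is 2.16-fold. Leaving out any 1 heart gave 1.04 to 1.19. The value was 1.05 with Xist as a covariate and was 1.10 after a correction for gene length. Exons of the opposite-strand gene Gm15533 cover 27.6% of the exon bases of Trim72, and the strand setting of the counting is not stated. Gm15533 itself had between 0 and 2 counts in every heart.

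**Figure D1:**
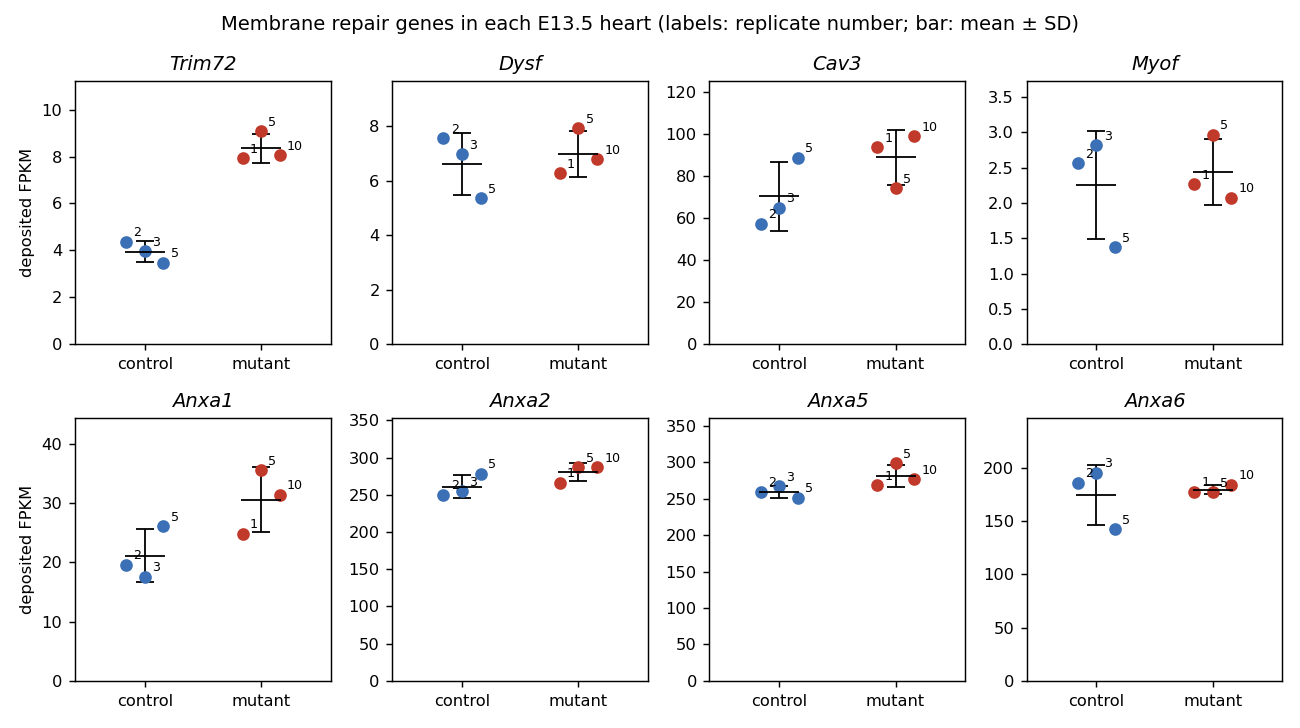
Deposited FPKM of the 8 membrane repair genes in each heart (points, numbered by replicate; blue, control; red, mutant), with the mean and SD of each group (n = 3) and axes that start at 0. The 3 mutant hearts lie above the 3 control hearts without overlap for Trim72 (7.93 to 9.07 against 3.47 to 4.37 FPKM), and for Anxa5 by a narrow margin, while the groups overlap for the other 6 genes.

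Set against the cardiomyocyte markers of the same heart, Trim72 was also higher in every mutant heart than in every control heart. Per 1000 CPM of the 11 cardiomyocyte markers, Trim72 was at 0.426, 0.422 and 0.423 CPM in control replicates 2, 3 and 5. It was at 0.842, 0.929 and 0.831 CPM in mutant replicates 1, 5 and 10. The control hearts lay close together on this scale although control replicate 5 had the lowest sum of the markers. The markers did not fall evenly in that heart. Myh7 (4129 bases) was at 1477 CPM there, against 4054 and 3736 CPM in control replicates 2 and 3. Tnnt2 (1263 bases) was at 3995 CPM, against 4010 and 3875 CPM. How far the trend with gene length in control replicate 5 enters the ratio was not tested. Trim72 is also expressed in skeletal muscle. In control replicate 3, the heart with the highest skeletal muscle markers, Trim72 lay between the other control hearts on the FPKM scale, and without that heart the log2 fold change was 1.11. The defining skeletal muscle factors Myog and Pax7 had 1169 and 130 counts in control replicate 3, against 41 to 149 counts and 0 to 5 counts in the other hearts. The part of skeletal muscle RNA in the Trim72 level was not tested.

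**Figure D2:**
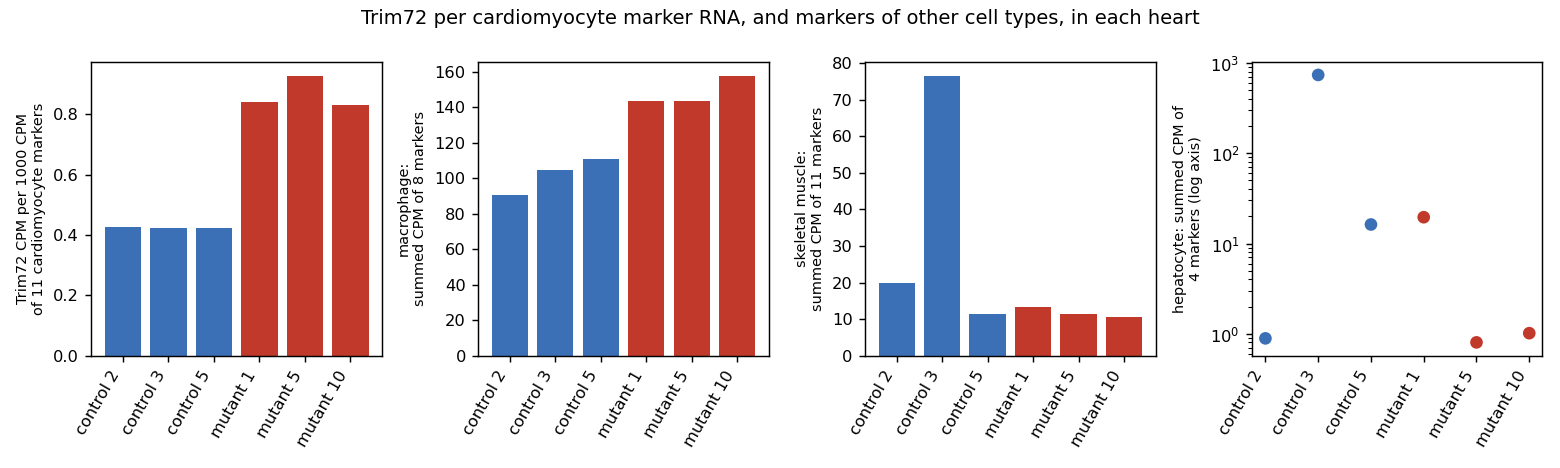
Trim72 CPM per 1000 CPM of 11 cardiomyocyte markers, and the summed CPM of macrophage, skeletal muscle and hepatocyte markers, in each heart (blue, control; red, mutant; the hepatocyte axis is logarithmic). Trim72 is at 0.422 to 0.426 in control and 0.831 to 0.929 in mutant hearts, and the skeletal muscle and hepatocyte markers are highest in control replicate 3.

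The ferlins did not share this difference. Dysf (ENSMUSG00000033788, chromosome 6 from 84008590 to 84211060) was at 7.55, 6.97 and 5.35 FPKM in control replicates 2, 3 and 5. It was at 6.27, 7.91 and 6.78 FPKM in mutant replicates 1, 5 and 10. The groups overlapped, and the log2 fold change was 0.11 with a standard error of 0.15. Myof (ENSMUSG00000048612, chromosome 19 from 37899036 to 38043577), which also acts in the fusion of myoblasts, was at 2.57, 2.82 and 1.38 FPKM in the control hearts in the same order. It was at 2.26, 2.97 and 2.08 FPKM in the mutant hearts, with a log2 fold change of 0.14 and a standard error of 0.25. Control replicate 5 was the lowest heart for both, and without it the log2 fold changes were −0.02 for Dysf and −0.11 for Myof. Exons of opposite-strand genes cover 5.49% of the exon bases of Dysf. Within a heart, the FPKM of Trim72 was 0.570 to 0.649 times that of Dysf in the control hearts and 1.15 to 1.27 times in the mutant hearts.

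Cav3 (ENSMUSG00000062694, chromosome 6 from 112459505 to 112472872) was at 57.3, 64.9 and 88.5 FPKM in control replicates 2, 3 and 5. It was at 93.6, 74.0 and 98.8 FPKM in mutant replicates 1, 5 and 10. The highest control heart, replicate 5, lay above the lowest mutant heart, so the groups overlapped. The mean was 70.2 ± 16.3 FPKM in control and 88.8 ± 13.0 FPKM in mutant hearts (SD, n = 3 per group), with a log2 fold change of 0.37 and a standard error of 0.19. Without control replicate 5 the groups were apart and the log2 fold change was 0.58, and without control replicate 2 it was 0.24.

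Among the 4 annexins of the group the difference was largest for Anxa1, whose protein is also known for limiting inflammation. Anxa1 (ENSMUSG00000024659, chromosome 19 from 20373428 to 20390944) was at 19.6, 17.5 and 26.1 FPKM in control replicates 2, 3 and 5. It was at 24.8, 35.5 and 31.4 FPKM in mutant replicates 1, 5 and 10. Control replicate 5 lay above mutant replicate 1, and the log2 fold change was 0.57 with a standard error of 0.20. It was 0.76 without control replicate 5 and 0.45 without control replicate 3 or without mutant replicate 5. Myeloid cells also express Anxa1. The summed level of 8 macrophage markers was 90.7 to 111 CPM in control and 144 to 158 CPM in mutant hearts. Of the 8, 7 were higher in every mutant heart than in every control heart, where 6.61% of all genes tested were. Mrc1 overlapped with a log2 fold change of −0.19. In edgeR 0 of the 8 passed the adjustment and 7 had an unadjusted p under 0.05, where 5.73% of all genes tested did. The macrophage sums of mutant replicates 1, 5 and 10 were 143.9, 143.6 and 158 CPM. Annexins are also made outside the myocardium, and fibroblast markers (7 genes) summed to 2128 to 3076 CPM in control and 3058 to 4363 CPM in mutant hearts, endothelial markers (6 genes) to 655 to 966 and 849.5 to 1077 CPM, epicardial markers (8 genes) to 235 to 476 and 299 to 527 CPM, and smooth muscle markers (4 genes) to 1489 to 1651 and 1485 to 1699 CPM. Within the fibroblast list, Col1a1 (log2 fold change 0.95) and Col1a2 (0.76) were higher without overlap, Tcf21 was lower without overlap (51.3 ± 7.23 CPM in control and 23.8 ± 3.70 CPM in mutant hearts, SD, n = 3, log2 fold change −1.10) and Pdgfra overlapped (−0.38), and 0 of the 7 passed the adjustment in edgeR, with 3 at an unadjusted p under 0.05. Within the epicardial list, Krt8 (log2 fold change 1.13), Upk1b (0.96) and Krt18 (0.56) were higher without overlap. The others overlapped, with Wt1 at −0.10, Tbx18 at −0.10, Aldh1a2 at −0.26, Krt19 at 0.10 and Upk3b at 0.18. In edgeR 0 of these 8 passed the adjustment, with 3 at an unadjusted p under 0.05. Lung and foregut markers (5 genes) summed to 11.5 CPM in control replicate 5 and 11.3 CPM in mutant replicate 5. They summed to 0.941 to 2.89 CPM in the other hearts. The part of these cells in the Anxa1 difference was not tested.

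Anxa2, Anxa5 and Anxa6 were the abundant annexins of the group and differed little. Anxa2 (ENSMUSG00000032231, chromosome 9 from 69453620 to 69491795), which works as a complex with S100a10, was at 249.9, 255 and 278 FPKM in control replicates 2, 3 and 5. It was at 266, 287 and 287 FPKM in mutant replicates 1, 5 and 10, with a log2 fold change of 0.13 and a standard error of 0.11. Anxa5 (ENSMUSG00000027712, chromosome 3 from 36448923 to 36475894), whose protein forms ordered arrays on the wounded membrane, was at 259.9, 267 and 251 FPKM in the control hearts in the same order. It was at 269, 299 and 277 FPKM in the mutant hearts, with a log2 fold change of 0.15 and a standard error of 0.10. The groups did not overlap for Anxa5, but they lay close, and the highest control heart and the lowest mutant heart were 246.7 and 248.6 CPM. Anxa6 (ENSMUSG00000018340, chromosome 11 from 54979108 to 55033445) was at 186, 196 and 142 FPKM in the control hearts and at 178, 177 and 184 FPKM in the mutant hearts. Its log2 fold change was 0.07 with a standard error of 0.14, and −0.04 without control replicate 5.

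**Figure D3:**
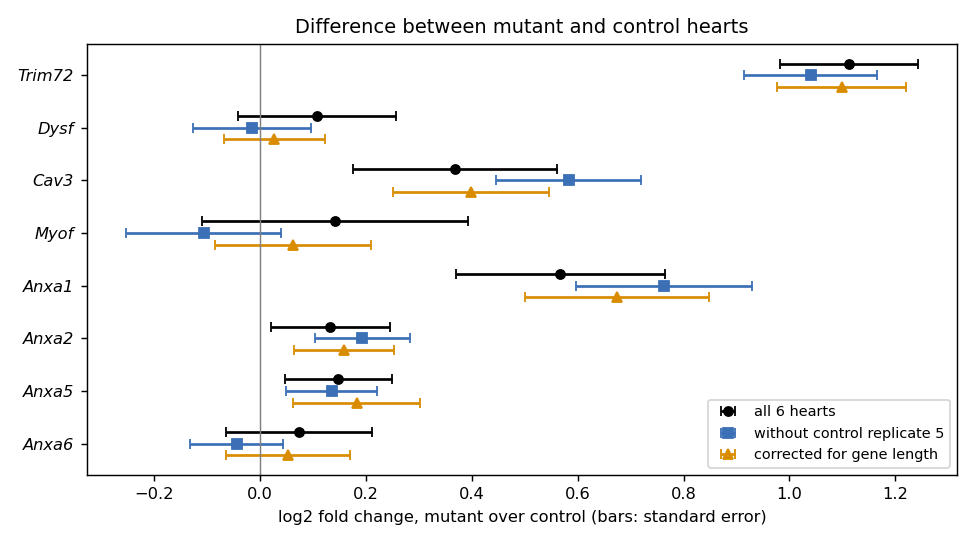
Log2 fold change of mutant over control for the 8 genes from edgeR's quasi-likelihood fit (points) with its standard error (bars), with all 6 hearts, without control replicate 5, and with each heart corrected for its trend with gene length. Trim72 lies between 1.04 and 1.11 in the 3 fits, while Dysf, Myof and Anxa6 move from above to below 0 without control replicate 5.

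With all 6 hearts, DESeq2 called Trim72 and no other gene of the group, and edgeR called none. In edgeR's quasi-likelihood test 0 of 17473 genes (0%) and so 0 of the 8 had a p under 0.05 after Benjamini-Hochberg adjustment, and 1002 genes (5.73%) had an unadjusted p under 0.05. DESeq2 called 133 of the 19282 genes to which it gave an adjusted p (0.69%), and of the 8 it called 1. Limma called 0 genes. The groups did not overlap, with the mutant higher, in 2 of the 8 genes (Trim72 and Anxa5), where 6.61% of all genes tested did so. They did not overlap with the mutant lower in 0 of the 8, against 4.59% of all genes. Without control replicate 5 the mutant was higher without overlap in 5 of the 8, against 15.7% of all genes, and without control replicate 3 in 2 of the 8, against 9.93%. The mutant was lower without overlap in 0 of the 8 in both cases, against 14.5% and 9.11% of all genes. All 8 log2 fold changes were above 0 with all hearts, with a median of 0.14 against −0.00 over all genes tested, and 5 were above 0 without control replicate 5. These counts, and the DESeq2 call of Trim72, rest on the contrast that drew attention to Trim72. They are given as a description and are no test of the 8 genes.

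The low values of control replicate 5 followed gene length within the group. The lengths behind the deposited FPKM ran from 651 bases in Anxa1 to 7094 bases in Myof. On the log2 CPM scale, control replicate 5 differed from the mean of control replicates 2 and 3 by −0.93 in Myof, −0.41 in Dysf (5161 bases), −0.39 in Anxa6 (2352 bases) and −0.23 in Trim72 (1945 bases). It differed by 0.57 in Cav3 (1157 bases), 0.53 in Anxa1, 0.17 in Anxa2 (1132 bases) and −0.04 in Anxa5 (942 bases). The 4 longest genes were thus lower in this heart than in the other control hearts, and of the 4 shortest 3 were higher. With each heart corrected for its trend with gene length, the log2 fold changes were 0.06 in Myof, 0.03 in Dysf, 0.40 in Cav3 and 0.67 in Anxa1.

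**Figure D4:**
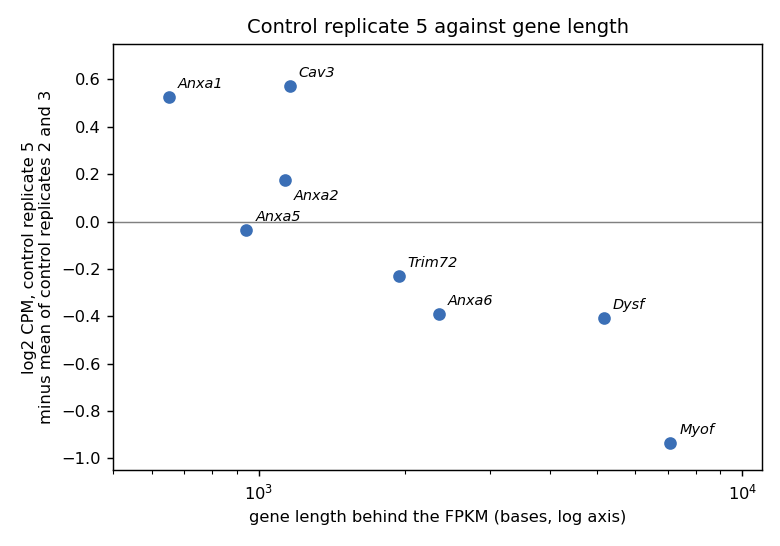
Log2 CPM of control replicate 5 minus the mean of control replicates 2 and 3 for each of the 8 genes, against the gene length behind the deposited FPKM on a log axis. The value is lowest in the longest gene, Myof (−0.93), and highest in Cav3 (0.57) and Anxa1 (0.53).

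The levels of the 8 genes differed widely in control hearts. On the FPKM scale the order of the control means was Anxa2 (261), Anxa5 (259), Anxa6 (175), Cav3 (70.2), Anxa1 (21.1), Dysf (6.62), Trim72 (3.94) and Myof (2.25). The ranges over the 3 control hearts overlapped for Anxa2 and Anxa5 and for no other neighbours in this order. In the mutant hearts Trim72, at 8.35 ± 0.63 FPKM, stood above Dysf, at 6.98 ± 0.84 FPKM (SD, n = 3 each), although the lowest Trim72 value and the highest Dysf value, 7.93 and 7.91 FPKM, nearly met. The order depends on the length assigned to a gene. The deposited FPKM uses 651 bases for Anxa1, where the exons of GENCODE M21 together cover 2911 bases. With the exon union as the length, the control means were 140.2 in Anxa6, 138 in Anxa5, 79.2 in Anxa2, 70.2 in Cav3, 4.71 in Anxa1, 4.10 in Dysf, 3.43 in Trim72 and 1.27 in Myof. On that scale the ranges of Anxa6 and Anxa5, of Anxa2 and Cav3, of Anxa1 and Dysf and of Dysf and Trim72 overlapped. The assigned length divides a gene's count alike in every heart, so FPKM ratios between hearts do not depend on it. The trend of control replicate 5 with gene length is a separate matter.

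The other genes of membrane repair were taken from 10 lists with 74 genes, of which 73 were in the table and 69 were tested. In edgeR's quasi-likelihood test 0 of the 69 had an adjusted p under 0.05 in either direction, 7 had an unadjusted p under 0.05 (5.73% of all genes tested did), and DESeq2 called 0. The log2 fold change was above 0 in 54 and below 0 in 15, with a median of 0.12, where 49.8% of all genes tested were above 0. Without control replicate 5, 52 of 69 were above 0 (50.7% of all genes), and without control replicate 3, 50 of 70 (also 50.7%). The groups did not overlap in 11 of the 69 with the mutant higher, against 6.61% of all genes tested, and in 3 with the mutant lower, against 4.59%. The lists were not tested against other genes. No other gene of these lists reached the size of the log2 fold change of Trim72 in this fit with all hearts, in either direction. Trim72 had been selected because it stood out in this contrast, so this order is a description with no test.

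**Figure D5:**
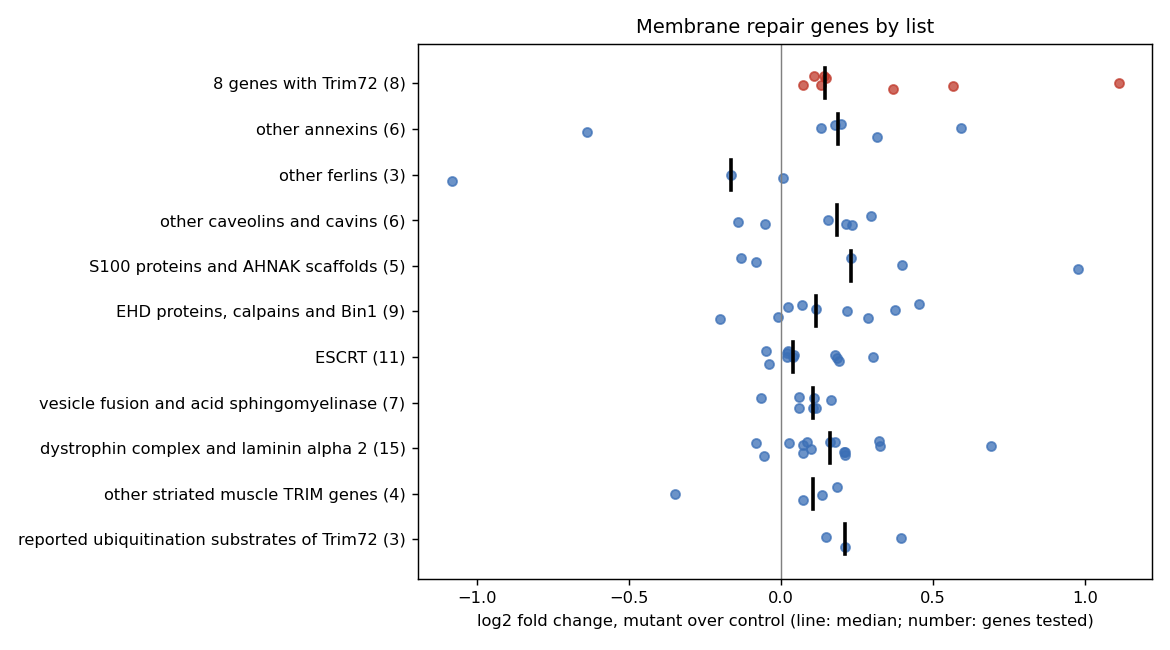
Log2 fold change of mutant over control for the 8 genes (red) and for the tested genes of the 10 other membrane repair lists (blue), with the median of each list as a line and the number of genes tested in parentheses. Most medians lie between 0.04 and 0.23, and that of the other ferlins is −0.16. Trim72, which was selected on this contrast, is the point farthest from 0 at 1.11.

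As edgeR called 0 of all 17473 genes tested, Trim72 included, none of the close relatives of the 8 genes passed. Some relatives at a low level had large fold changes. Of the other annexins, 6 of 8 were tested and 5 were above 0. Anxa9 (log2 fold change −0.64, SE 0.34) and Anxa8 (0.59, SE 0.33) had mean levels from 0.587 to 1.24 CPM. Anxa4 had the smallest p of these annexins. It was at 12.1 ± 0.757 CPM in control and 15.03 ± 1.70 CPM in mutant hearts (SD, n = 3), a log2 fold change of 0.32 with an SE of 0.13 (edgeR, adjusted p = 0.840). Of the other ferlins, 3 of 4 were tested. Fer1l6 was at 0.799 ± 0.158 CPM in control and 0.376 ± 0.129 CPM in mutant hearts (SD, n = 3), a log2 fold change of −1.08 with an SE of 0.39 (edgeR, adjusted p = 0.776), and Fer1l5 was also lower without overlap, by a log2 fold change of −0.16. The value of Fer1l6 was close in size to that of Trim72 and opposite in sign, at a level under 1 CPM. Among the other caveolins and the cavins, which coat caveolae, 4 of 6 were above 0. Cavin2 was at 216 ± 7.88 CPM in control and 266 ± 23.8 CPM in mutant hearts (SD, n = 3), a log2 fold change of 0.30 with an SE of 0.11 (edgeR, adjusted p = 0.783). The widely expressed Cav1 had a log2 fold change of −0.14, and the FPKM of Cav3 was 0.469, 0.603 and 0.511 times that of Cav1 in control replicates 2, 3 and 5. That ratio was 0.888, 0.592 and 0.774 in mutant replicates 1, 5 and 10, so the groups overlapped.

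Partners of annexins and dysferlin gave a like picture. In the list of S100 proteins and AHNAK scaffolds, 3 of 5 tested genes were above 0. Ahnak2 was at 1.96 ± 0.727 CPM in control and 3.88 ± 0.797 CPM in mutant hearts (SD, n = 3), a log2 fold change of 0.98 with an SE of 0.32 (edgeR, adjusted p = 0.701). S100a10, the partner of Anxa2, had a log2 fold change of −0.13, and S100a4 is listed at 0 in every heart. In the list of EHD membrane-shaping ATPases, calpains and Bin1, 7 of 9 were above 0. Ehd2, found at caveolae, was at 79.1 ± 8.66 CPM in control and 108 ± 19.9 CPM in mutant hearts (SD, n = 3), a log2 fold change of 0.46 with an SE of 0.15 (edgeR, adjusted p = 0.737). Capn3, the muscle calpain, had a log2 fold change of 0.37 with a standard error of 0.29. The dystrophin complex ties the membrane to the cytoskeleton and limits its tearing. In the list of this complex and laminin alpha 2, 13 of 15 were above 0 with a median of 0.16. Dtna was at 12.2 ± 0.198 CPM in control and 15.3 ± 1.51 CPM in mutant hearts (SD, n = 3), a log2 fold change of 0.33 with an SE of 0.12 (edgeR, adjusted p = 0.767).

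In the general machinery of vesicle fusion and membrane scission, most genes had small positive values. The ESCRT list, whose proteins pinch off damaged membrane, had 9 of 11 genes above 0 with a median of 0.04, and its smallest p was that of Chmp4c, with a log2 fold change of 0.30 with an SE of 0.16 (edgeR, adjusted p = 0.932). The list of vesicle fusion proteins and acid sphingomyelinase had 6 of 7 genes above 0 with a median of 0.10, and Snap23 had the smallest p, with a log2 fold change of 0.16 with an SE of 0.11 (edgeR, adjusted p = 0.966). Of the other TRIM genes of striated muscle, Trim55 had a log2 fold change of 0.18 with an SE of 0.11 (edgeR, adjusted p = 0.951). Trim63 had one of 0.14, Trim32 one of 0.07 and Trim54 one of −0.35, against 1.11 for Trim72, which was selected on this contrast. Of 3 proteins that Trim72 is reported to ubiquitinate, Irs1 had a log2 fold change of 0.40 with an SE of 0.18 (edgeR, adjusted p = 0.895), and exons of the opposite-strand gene Gm9747 cover 30.9% of its exon bases. Insr had a log2 fold change of 0.21 and Ptk2 one of 0.15. RNA counts do not measure the protein level on which ubiquitination acts.

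The genes whose level most resembled that of Trim72 over the 6 hearts were sought among 14162 others with a mean of at least 1 CPM. The highest Pearson's r of log2(CPM + 1) was 0.996 for Samd9l, followed by Arhgef5 (0.992), Sla (0.988), Prrg4 (0.988) and Map7 (0.986), and 79 genes had an r over 0.95. The coefficient takes in the group difference that drew attention to Trim72, so it is a description without a p. Samd9l was at 4.65, 4.26 and 3.999 CPM in control replicates 2, 3 and 5 and at 7.14, 7.29 and 7.21 CPM in mutant replicates 1, 5 and 10. Prrg4 had the largest difference of the 5, with 1.33, 1.01 and 0.772 CPM in the control hearts and 3.14, 5.47 and 4.75 CPM in the mutant hearts. Each of the 5 kept an r of at least 0.98 with any 1 heart left out. Of the other 7 membrane repair genes, r with Trim72 was 0.853 in Anxa5, 0.741 in Anxa1 and between 0.395 and 0.573 in the rest. The 5 genes above were picked as the highest of 14162, so their r cannot be set against that of these 7.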

How the data were processed

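Total RNA from 6 whole E13.5 mouse hearts (3 control, 3 mutant) was sequenced as paired ends. Trimming, alignment to mm10 with STAR and assignment of uniquely mapped reads by featureCounts are given in the study's methods, and the authors deposited the raw counts per gene. The submitters' processing notes name HTSeq in addition. The authors also deposited FPKM, which in the values is the count over the product of a constant gene length and the library total (largest relative deviation 8.05e-15). A table of group means of FPKM was not used, and 0 columns of per-sample values were left unmapped.

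Counts were compared with edgeR 4.0.16 in R 4.3.3 (TMM normalization, filterByExpr at a minimum count of 10 and a minimum total of 15, quasi-likelihood test, two-sided, Benjamini-Hochberg adjustment over all 17473 genes tested, threshold 0.05), with no covariates. CPM are scaled to the TMM-normalized library. The standard error is the log2 fold change divided by the square root of F. DESeq2 1.42.0 and limma 3.58.1 were alternatives, as were other size factors, no filter, a robust fit, Xist, a lowess correction for gene length (span 0.5) and each heart left out. The edgeR fit was checked on simulated data, in which no heart had a trend with gene length or RNA of other tissues. Positions are from GENCODE M21 (46488 of 46983 genes matched), and start-site sequences from RefSeq.

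The 8 genes and all lists were chosen with earlier results of these data known. Named genes were the 8, Wt1, Tnnt2, the gene with the smallest p of each list (0 passed) and the 5 most like Trim72. Other genes were named after their values were seen. Each heart is a separate embryo, and SD covers the spread between embryos. The SE rests on that spread and on variance shared across the genes tested. No molecular identifiers are described, so reads may repeat molecules.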

Additional observations from a re-analysis of the deposited data

How the results depend on the processing

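The number of genes called by edgeR's quasi-likelihood test, 0 with all hearts, was 133 with DESeq2, 34 without a filter on low counts and 6 with the correction for gene length, and ranged from 0 to 44 when single hearts were left out, with 44 without control replicate 5. The cause was not tested. The number of other membrane repair genes called was 0 under all 15 alternatives. Of 120 log2 fold changes of the 8 genes under alternatives, 119 moved by less than 1 SD between hearts, and the other was Trim72 on log2(FPKM + 1), at 0.92, where the added 1 lowers the change of a gene at this level. Without control replicate 5, 3 of the 8 turned negative (Dysf −0.02, Myof −0.11 and Anxa6 −0.04), and without mutant replicate 5 Myof did (−0.02). The control levels moved by more than 1 SD in 7 of 8 genes with the union of exons as the length, chosen after seeing the data (3.43 in Trim72, 4.10 in Dysf, 1.27 in Myof, 4.71 in Anxa1, 79.2 in Anxa2, 138 in Anxa5 and 140.2 in Anxa6). Of the 5 genes most like Trim72, 4 had a Spearman's rho of at least 0.9. No paired analysis was possible because no pairing of control and mutant hearts is described. The replicate number 5 found in both groups does not make a pair. With 3 hearts a group, the log2 fold changes of Dysf, Myof and Anxa6 were smaller than their standard errors, and those of Anxa2 and Anxa5 were less than 1.5 times theirs.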
